A study of Mus musculus with 2 samples.

Results

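The dopamine, serotonin, adrenergic and cholinergic genes described here are 48 protein-coding genes of the 43346 genes with Ensembl identifiers in the tables. They were listed by symbol, with no cutoff on their values, though earlier results of these data were known when the list was made. They comprise 5 dopamine receptors, 12 serotonin receptors, 6 adrenergic receptors, 5 muscarinic receptors, 6 nicotinic receptor subunits, 5 synthesis enzymes, 4 plasma membrane transporters, 2 vesicular transporters and 3 degrading enzymes. Each symbol matched 1 row. The study sequenced total RNA (fragments over 200 nt, 10 ng per library) in 2 biological replicate libraries of forebrain from embryos of the B6NCrl mouse strain at 16.5 days of gestation (E16.5). Both libraries came from pooled male and female embryos with no transgene, mutation or treatment in the labels. Replicate 2 pooled 41 embryos, and the labels give no number for replicate 1. There is 1 group, so each level is given for both libraries, and a difference between them has 1 library on each side, no replicate check and no p-value.

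Dopamine, serotonin and noradrenaline are made by small groups of neurons whose cell bodies lie mostly in the midbrain, the raphe and the hindbrain, and whose axons run into the forebrain, where many more cells carry the receptors. Acetylcholine differs in that the forebrain holds cholinergic neurons of its own, in the basal forebrain and as striatal interneurons. Each system has the same parts, namely an enzyme that makes the transmitter, a vesicular transporter that loads it, receptors that read it, and a transporter or an enzyme that ends the signal. In bulk tissue, fewer cells of a type and less RNA per cell cannot be told apart.

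The libraries held 31211128 and 26957198 expected counts on genes, with spike-ins taking 5.93% and 4.10% of all TPM (a level per transcript length that sums to the same total in each library). The 6 pan-neuronal markers differed by a log2 ratio of -0.06 in summed counts, with Gap43 (-0.42) and Snap25 (-0.33) lower in replicate 2 and Dcx (0.17) and Map2 (0.08) higher. All 10 striatal markers reached 1 TPM in both libraries. Of the 9 hypothalamic markers, all were higher in replicate 1, and 6, each with a mean of at least 50 counts, were at least 2-fold higher. Of the other 3, Nr5a1 (37 counts) and Hcrt (7 counts) were at 0 in replicate 2, and Pomc had 59 and 34 counts. In replicate 2, 2 of the 6 meningeal fibroblast markers were at least 2-fold higher. The hindbrain noradrenergic marker Phox2a and the raphe factor Fev were at 0 counts in both libraries.

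As a group the 48 genes were low. They had a median of 1.32 TPM, against 5.05 TPM over 21474 protein-coding genes. Of the 48, 23 (47.9%) reached 1 TPM in both libraries, against 60.7% of protein-coding genes, and 5 (10.4%) reached 10 TPM in both, against 40.9%. Those 5 were the nicotinic subunits Chrnb2 and Chrna7, the vesicular monoamine transporter Slc18a2, the monoamine oxidase Maoa and the dopamine receptor Drd1. Another 8 genes (Htr1b, Htr1d, Htr5a, Adra1a, Adra2a, Chrm3, Chrm5 and Slc5a7) reached 1 TPM in replicate 1 only. Among those 8, Htr1d and Chrm3 did so only with a short processed transcript. It held 0.20 of 1.00 TPM for Htr1d (1 count) and 1.01 of 1.67 TPM for Chrm3 (9.2 counts). The other 17 stayed under 1 TPM in both, and 4 of them (Drd3, Adra1d, Dbh and Slc6a2) had 3 counts or fewer in each library. No member was at 0 counts in both.

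**Figure D1:**
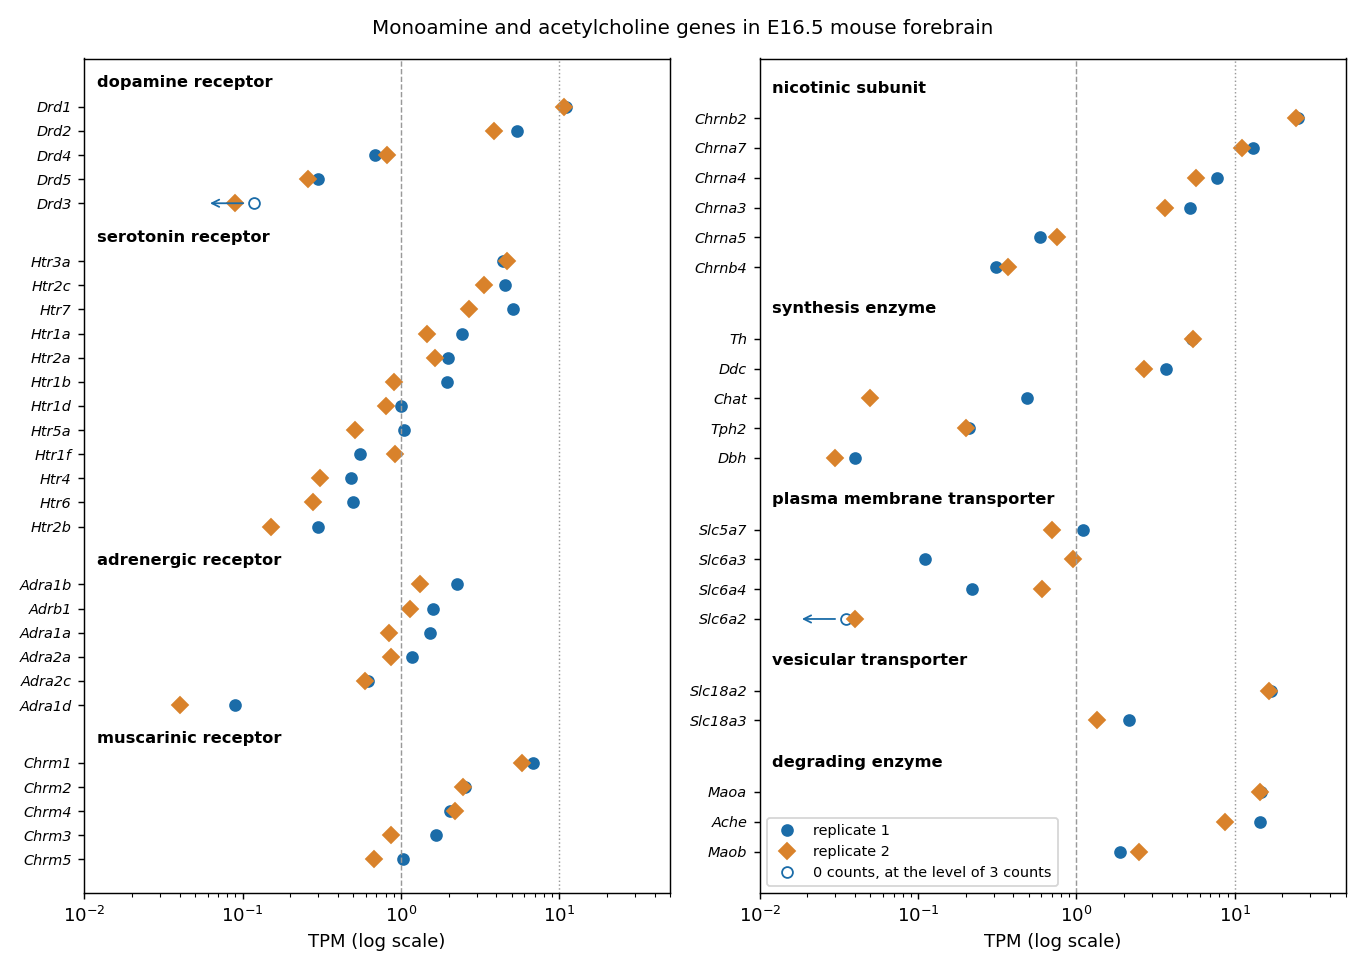
Level of each of the 48 genes in TPM (log axis) in replicate 1 (circles) and replicate 2 (diamonds), ordered within each role class by mean level; the dashed line marks 1 TPM, the dotted line 10 TPM, and an open circle with an arrow stands for 0 counts, drawn at the level of 3 counts. Chrnb2 is the highest gene at 25.19 and 24.26 TPM, and Chat, Slc6a3 and Slc6a4 are the low genes whose points lie far apart.

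Among the dopamine receptors, Drd1, the Gs-coupled receptor of direct-pathway striatal neurons, led in both libraries. Drd1 had 10.98 TPM in replicate 1 and 10.68 TPM in replicate 2, from 706 and 577 counts. Drd2, the Gi-coupled receptor of indirect-pathway neurons and an autoreceptor of dopamine neurons, had 5.40 TPM and 3.85 TPM. The libraries lay close together for Drd1, while Drd2 was 1.42-fold higher in replicate 1 (log2 ratio -0.50, 95% counting interval -0.90 to -0.11; here and below, replicate 2 over replicate 1). Within a library, Drd1 exceeded Drd2 by a log2 TPM ratio of 1.25 ± 0.32 (SD, n = 2). Drd2 is listed with 1 transcript, Drd2-201, so its long and short forms, which differ in the third cytoplasmic loop, were not distinguished.

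The other dopamine receptors were low. Drd4 had 0.69 TPM and 0.82 TPM, and Drd5, the second Gs-coupled receptor, had 0.30 TPM and 0.26 TPM. Drd3, known from the islands of Calleja and the nucleus accumbens of the mature brain, was the lowest, with 0 counts in replicate 1, which allows up to 0.118 TPM, and 2 counts (0.09 TPM) in replicate 2. Drd1 exceeded Drd5 by a log2 ratio of 5.28 ± 0.12 (SD, n = 2). Drd5 had 15.0 and 11 counts and a wide counting interval between the libraries (-1.48 to 1.01), so that SD understates the uncertainty. Part of the exon sequence of Drd5, 1531 of 3152 bases, is shared with the antisense gene Gm26560, and whether the counts used strand is not given in the sources used here.

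Serotonin receptors were low to moderate, with 5 of 12 reaching 1 TPM in both libraries and none reaching 10 TPM in either. Htr3a, the ion-channel receptor that marks a class of cortical interneurons, had 4.38 TPM and 4.67 TPM. Htr2c, a Gq-coupled receptor, had 4.53 TPM and 3.33 TPM. Htr7, a Gs-coupled receptor, had 5.13 TPM and 2.67 TPM. These 3 had close means, between 3.90 and 4.53 TPM, with Htr3a nearly level between the libraries and Htr7 1.90-fold higher in replicate 1 (log2 ratio -0.93, interval -1.25 to -0.62).

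Htr1a, the Gi-coupled autoreceptor of raphe neurons that is also found on forebrain neurons, had 2.43 TPM and 1.46 TPM. Htr2a, the Gq-coupled receptor of cortical pyramidal neurons, had 1.97 TPM and 1.63 TPM. Htr2c exceeded Htr2a in both libraries, by 1.12 ± 0.12 on the log2 scale (SD, n = 2). Of the Htr2c level, 1.35 and 0.89 TPM lay on the 648-base processed transcript Htr2c-205, from 13.9 and 7.7 counts. The gap was therefore smaller for protein-coding transcripts. Htr1b, a presynaptic Gi-coupled receptor known from thalamic axons, had 1.96 TPM and 0.91 TPM, from 170 and 66.5 counts. Htr5a, another Gi-coupled receptor, had 1.05 TPM and 0.51 TPM, from 108 and 44 counts. Both Htr1b and Htr5a were lower in replicate 2, and they were the only members at least 2-fold apart by the call rule described below.

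The remaining serotonin receptors stayed at or under 1 TPM in both libraries. Htr1d (1.00 and 0.81 TPM), Htr1f (0.55 and 0.92 TPM), Htr4 (0.48 and 0.31 TPM) and Htr6 (0.50 and 0.28 TPM) had 10 to 43 counts per library. Htr2b, the Gq-coupled receptor known from heart valves, was the lowest with 0.30 TPM and 0.15 TPM. Htr2b shares 252 of 2131 exon bases with the much more abundant Psmd1 on the other strand, and its 11 and 3 counts could include reads of that gene.

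No adrenergic receptor was high, and 2 of 6, Adra1b and Adrb1, reached 1 TPM in both libraries. Adra1b, a Gq-coupled receptor, had 2.27 TPM in replicate 1 and 1.31 TPM in replicate 2. Of this level, 0.73 and 0.36 TPM lay on the processed transcript Adra1b-202. Without it, Adra1b was under 1 TPM in replicate 2. Adrb1, the Gs-coupled receptor known from heart and cortex, had 1.60 TPM and 1.14 TPM. Adra1a had 1.53 TPM and 0.84 TPM. All 3 were lower in replicate 2, and the intervals of Adra1b (-1.40 to -0.38) and Adra1a (-1.38 to -0.40) excluded equality.

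Adra2a, the Gi-coupled autoreceptor of noradrenaline neurons, had 1.18 TPM and 0.87 TPM. Adra2c, its relative of the striatum, had 0.62 TPM and 0.59 TPM. Their within-library ratio, 0.74 ± 0.26 on the log2 scale (SD, n = 2), did not exceed 3 SD. Adra1d was the lowest adrenergic receptor, at 0.09 TPM and 0.04 TPM from 3 counts and 1 count.

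Of the muscarinic receptors, which are G-protein-coupled receptors for acetylcholine, 3 of 5 reached 1 TPM in both libraries. Chrm1, the Gq-coupled receptor of cortex and hippocampus, led with 6.82 TPM and 5.85 TPM. Chrm2, a Gi-coupled receptor, had 2.53 TPM and 2.48 TPM. Chrm4, the Gi-coupled receptor that direct-pathway striatal neurons carry, had 2.03 TPM and 2.18 TPM. The libraries were close for all 3, and Chrm1 exceeded Chrm2 by 1.33 ± 0.14 on the log2 scale while Chrm4 lay 1.59 ± 0.23 below Chrm1 (log2 ratio -1.59, SD, n = 2). Chrm3 had 1.67 TPM and 0.86 TPM, and Chrm5, the receptor known from midbrain dopamine neurons, was the lowest with 1.03 TPM and 0.68 TPM.

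Nicotinic receptors are ion channels of 5 subunits, and Chrnb2, a subunit gene, had the highest level of the 48. Chrnb2, which joins Chrna4 in the main high-affinity receptor of the brain, had 25.19 TPM and 24.26 TPM, from 2499 and 2021 counts. Chrna7, which forms receptors on its own, had 13.05 TPM and 11.05 TPM. Chrna4 had 7.71 TPM and 5.72 TPM. Chrnb2 was level between the libraries and exceeded its partner Chrna4 by 1.90 ± 0.27 on the log2 scale, a 3.72-fold difference, and Chrna4 lay below Chrna7 by a log2 ratio of -0.85 ± 0.13 (SD, n = 2). Chrnb2 shares 1365 of its 8380 exon bases with Adar on the other strand, which had 2833 and 2296 counts, and without known strand use the reads of the shared bases cannot be told apart.

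Chrna3, Chrna5 and Chrnb4 form a gene cluster on chromosome 9 (GRCm38), with 2331 bases between Chrna5 and Chrna3 and 1591 bases between Chrna3 and Chrnb4. The cluster encodes the subunits of the ganglionic receptor, and in the brain they are known from the habenula. Chrna3 had 5.20 TPM and 3.61 TPM. Chrna5 had 0.59 TPM and 0.75 TPM, and Chrnb4, the lowest subunit, had 0.31 TPM and 0.37 TPM. The clustered genes were thus far from equal, with Chrna3 over Chrna5 at 2.70 ± 0.62 on the log2 scale (SD, n = 2). Chrnb2 exceeded Chrnb4 73.0-fold. The habenula markers Pou4f1 (58 and 22 counts) and Gpr151 (57 and 22 counts) were lower in replicate 2, as Chrna3 was (295 and 172 counts), while Tac2 (56 and 59 counts), the third marker, was not. Their part in the level of Chrna3 was not tested.

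Among the synthesis enzymes, Th and Ddc stood above the rest. Th, tyrosine hydroxylase, the rate-limiting enzyme of dopamine and noradrenaline synthesis, had 5.36 TPM and 5.45 TPM. Ddc, the decarboxylase that dopamine and serotonin synthesis share, had 3.65 TPM and 2.68 TPM. Th hardly moved between the libraries, and the ratio of Ddc to Th, -0.79 ± 0.33 on the log2 scale (SD, n = 2), did not exceed 3 SD.

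The enzymes specific to noradrenaline, serotonin and acetylcholine were under 1 TPM in both libraries. Dbh, which turns dopamine into noradrenaline, had 2 counts and 1 count (0.04 and 0.03 TPM). Under the deposited posterior means Dbh had a mean of 0.590 TPM, against 0.0350 TPM here, and Tph2 had 0.510 TPM, against 0.205 TPM, while Th had 6.12 TPM, so the size of the gap between Th and Dbh depends on the estimate. Tph2, the enzyme of brain serotonin synthesis, had 10 and 8 counts (0.21 and 0.20 TPM) and lay below Ddc by a log2 ratio of -3.93 ± 0.27 (SD, n = 2). Chat, choline acetyltransferase, had 25 counts in replicate 1 and 2 counts in replicate 2 (0.49 and 0.05 TPM).

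The vesicular transporters contrasted with these low enzymes. Slc18a2, the vesicular monoamine transporter VMAT2 that dopamine, serotonin and noradrenaline neurons share, had 16.87 TPM and 16.51 TPM, from 1173 and 964 counts. It was the second highest of the 48 genes by mean level, and it was level between the libraries. Slc18a3, the vesicular acetylcholine transporter, had 2.16 TPM and 1.34 TPM, from 94 and 49 counts. Slc18a3 lies inside Chat on the same strand (chromosome 14, GRCm38), an arrangement known as the cholinergic locus. In both libraries Slc18a3 was above Chat, by 2.14 and 4.74 on the log2 scale, but the spread was wide (3.44 ± 1.84, SD, n = 2), and Chat had 2 counts in replicate 2.

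Promoter windows, from 250 bases before to 50 bases after the start of the gene, were available for 41 of the 48 members in the RefSeq table (GRCm38.p6). The cAMP response element TGACGTCA, searched on both strands, for which it reads the same, was in 2 of the 41 (4.88%), Th and Slc18a2, against 2.54% of 17492 promoters of the same length. These promoters are shown because they are those of the 2 members with the element, both of which were level between the libraries. In the sequences, from RefSeq, 5′ to 3′ on the strand of the gene, capitals mark the element. In Th (chr7:142899996-142900245, minus strand) it begins 45 bases before the start, and in Slc18a2 (chr19:59260628-59260881, plus strand) it begins 4 bases before the start and spans it.
Th: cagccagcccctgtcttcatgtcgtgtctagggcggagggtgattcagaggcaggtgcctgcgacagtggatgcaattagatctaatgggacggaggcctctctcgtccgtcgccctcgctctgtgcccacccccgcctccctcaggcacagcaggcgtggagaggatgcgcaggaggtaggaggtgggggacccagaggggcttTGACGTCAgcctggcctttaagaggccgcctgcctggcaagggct
Slc18a2: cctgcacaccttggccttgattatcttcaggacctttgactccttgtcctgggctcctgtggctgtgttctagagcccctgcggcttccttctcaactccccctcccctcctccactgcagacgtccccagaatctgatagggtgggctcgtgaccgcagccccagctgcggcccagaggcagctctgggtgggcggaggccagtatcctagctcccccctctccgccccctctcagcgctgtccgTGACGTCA
The GC box GGGCGG was in 26 of the 41 (63.4%, against 49.2% of all promoters), and the TATA box TATAAA was in 4, Adra2a, Ddc, Slc5a7 and Tph2 (9.76%, against 14.8%), both searched on both strands. The letters of the 3 motifs cannot overlap each other. A match is a description of letters and says nothing of binding.

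The plasma membrane transporters were low and unequal between the libraries. Slc5a7, the high-affinity choline transporter of cholinergic neurons, had 1.10 TPM and 0.70 TPM, from 105 and 56 counts. Slc6a3, the dopamine transporter, had 7 counts in replicate 1 and 50 counts in replicate 2 (0.11 and 0.95 TPM). Slc6a4, the serotonin transporter, had 11 and 25 counts (0.22 and 0.61 TPM). Slc6a3 and Slc6a4 thus lay in the opposite direction to most of the set. Slc6a2, the noradrenaline transporter, was at 0 counts in replicate 1, which allows up to 0.0350 TPM, and at 2 counts (0.04 TPM) in replicate 2. Slc18a2 exceeded Slc6a4 by 5.51 ± 1.06 on the log2 scale (SD, n = 2), so the vesicular transporter was far above the serotonin transporter in both libraries.

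Of the degrading enzymes, Maoa and Ache were among the highest of the 48 genes and Maob was lower. Maoa, the outer-mitochondrial monoamine oxidase with a preference for serotonin and noradrenaline, had 14.58 TPM and 14.32 TPM. Ache, acetylcholinesterase, had 14.32 TPM and 8.63 TPM, from 566 and 286 counts. Maob, the second monoamine oxidase, had 1.87 TPM and 2.47 TPM. Maoa was level between the libraries, Ache was 1.68-fold higher in replicate 1 (log2 ratio -0.75, interval -0.96 to -0.54), and the interval of Maob held equality. Maoa and Maob are neighbours on the X chromosome that point toward each other, 21463 bases apart, and Maoa exceeded Maob by 2.75 ± 0.30 on the log2 scale (6.72-fold, SD, n = 2).

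**Figure D2:**
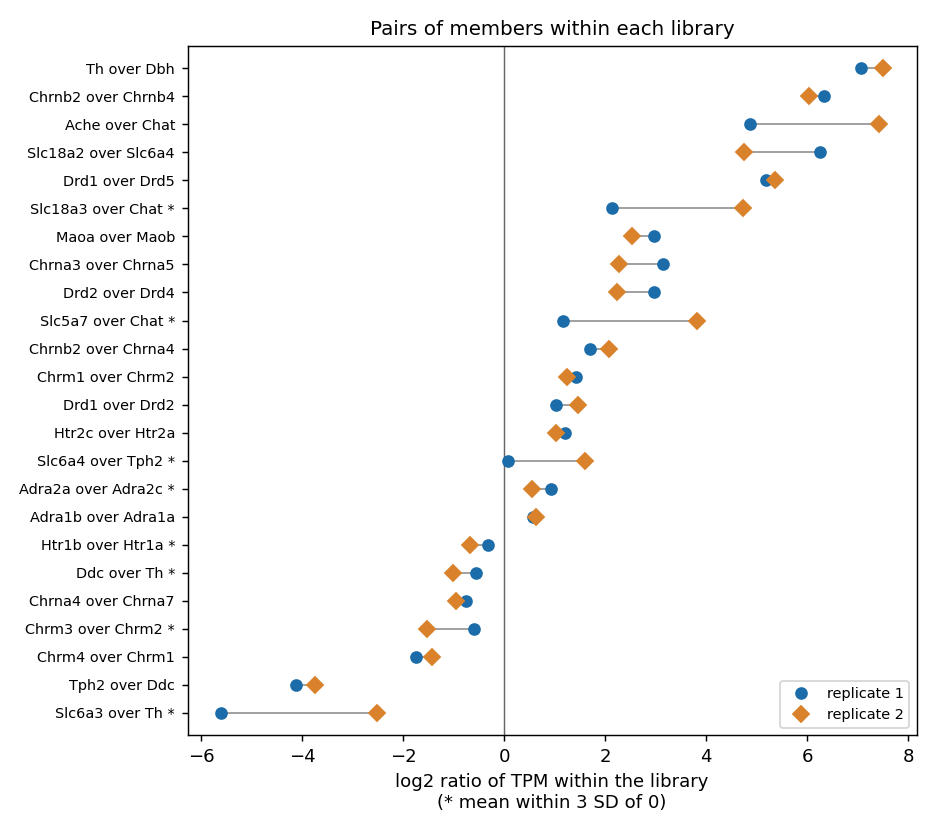
Log2 ratio of TPM for 24 pairs of members within replicate 1 (circles) and replicate 2 (diamonds); an asterisk marks pairs whose mean lies within 3 SD of 0. All 24 pairs have the same sign in both libraries and 16 exceed 3 SD; the widest gaps between libraries belong to pairs with Chat, Slc6a3 or Slc6a4.

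Over the 24 pairs, the order of the 2 genes was the same in both libraries for all 24, and for 16 the mean exceeded 3 SD. With 2 libraries an SD is itself imprecise. The 8 pairs within 3 SD were Htr1b over Htr1a, Adra2a over Adra2c, Chrm3 over Chrm2, Ddc over Th, Slc6a4 over Tph2, Slc6a3 over Th, and Slc5a7 and Slc18a3 over Chat. Slc6a3 lay below Th by log2 ratios of -5.61 in replicate 1 and -2.52 in replicate 2. Slc5a7 lay above Chat by 1.17 and 3.81.

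The 2 libraries were then compared gene by gene, with counts scaled by the trimmed mean of M-values (TMM). A gene was called when its mean was at least 50 counts, its ratio at least 2-fold, and its 95% counting interval excluded equality. By this rule 2 of the 27 members with at least 50 counts were called, Htr1b (2.15-fold, log2 ratio -1.10, interval -1.54 to -0.69) and Htr5a (2.07-fold, log2 ratio -1.05, interval -1.60 to -0.54), both higher in replicate 1. Over all 13929 genes compared, 1.37% were called, and 1.01% were called higher in replicate 1. With counts of 2 in 27 the share among members is imprecise. Htr1b shares 852 of 4724 exon bases with the antisense gene D430036J16Rik, which itself had 81.0 and 49.5 counts.

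Below the 2-fold limit the members leaned to replicate 1. Of the 27, 25 were lower in replicate 2, against 47.9% of all genes compared, although only 11 of the 27 were lower when counts were scaled to the spike-ins, a scaling that moved the median log2 ratio of all genes from 0.01 to 0.56 and left 5.25% of all genes lower. The median log2 ratio of the 27 was -0.50 with TMM scaling, a difference of -0.51 from the median of all genes. For 15 of the 27 (55.6%) the interval lay below 0, against 24.1% of all genes, and for none did it lie above 0. Among genes with 50 to 500 counts, where most members lie, 20 of 22 members were lower in replicate 2, against 54.8% of 4879 genes. The genes are not independent replicates, and the share is a description of these libraries.

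**Figure D3:**
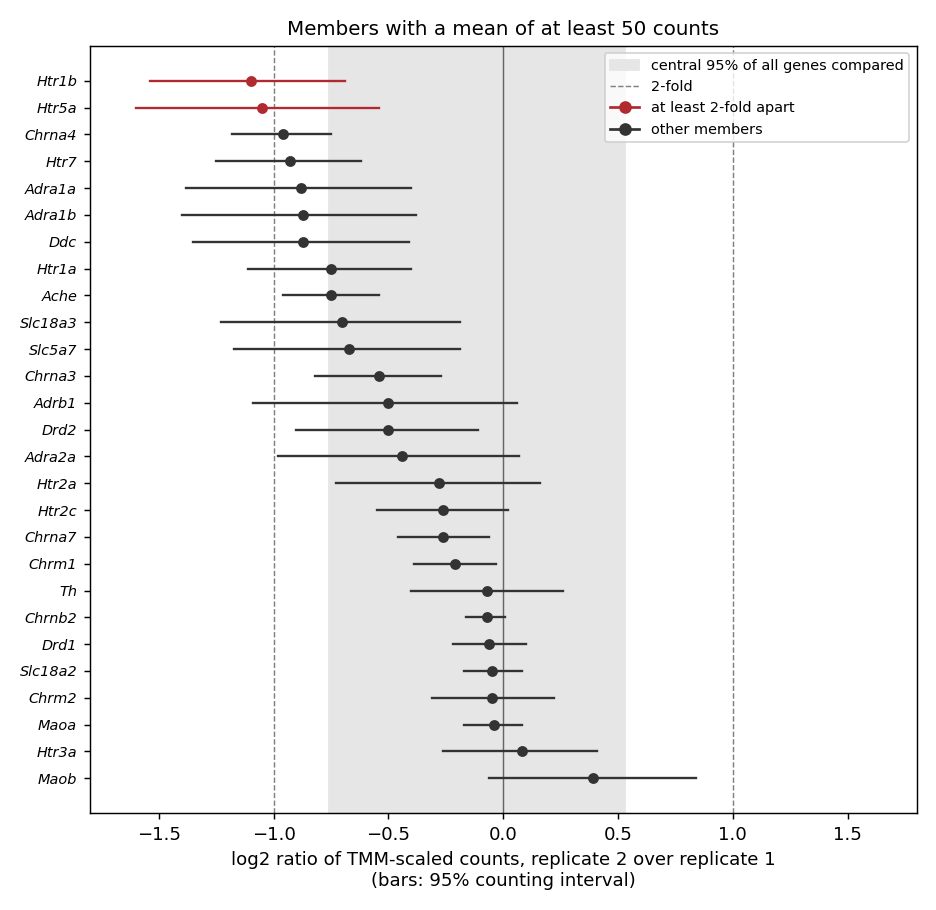
Log2 ratio of TMM-scaled counts, replicate 2 over replicate 1, for the 27 members that averaged at least 50 counts; bars are 95% counting intervals, the grey band holds the central 95% of the ratios of all genes compared (-0.76 to 0.53), and dashed lines mark 2-fold. Htr1b and Htr5a lie past 2-fold, 25 of the 27 points lie left of 0, and Htr3a and Maob lie right of it.

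The genes furthest below equality came from several transmitter systems. After Htr1b and Htr5a they were Chrna4 (-0.96), Htr7 (-0.93), Adra1a (-0.88), Adra1b (-0.87), Ddc (-0.87), and Htr1a and Ache (both -0.75). Slc18a3 (-0.70) and Slc5a7 (-0.67), both specific to cholinergic neurons, followed. At the other end was Maob (0.39, interval -0.06 to 0.84), 1 of 12 members whose intervals held equality. Closest to equality among the 12 were Maoa (-0.04), Chrm2 and Slc18a2 (both -0.05), Drd1 (-0.06), Chrnb2 and Th (both -0.07) and Htr3a (0.08). The rest of the 12 were Htr2c (-0.26), Htr2a (-0.28), Adra2a (-0.44) and Adrb1 (-0.50).

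By role class, summed counts of the adrenergic receptors (414 and 226 counts, log2 ratio -0.64, interval -0.88 to -0.40) and of the serotonin receptors (1416 and 840 counts, log2 ratio -0.52, interval -0.64 to -0.39) were lowest in replicate 2 relative to replicate 1. Synthesis enzymes followed with -0.44 (interval -0.70 to -0.19), while the dopamine receptors (-0.11) and the vesicular transporters (-0.09) had intervals that held 0. Drd1 held 706 and 577 of the 884 and 694 dopamine receptor counts. Slc18a2 held 1173 and 964 of the 1267 and 1013 vesicular transporter counts. Each sum thus follows that gene and not the class. Drd2 (-0.50, interval -0.90 to -0.11) and Slc18a3 (-0.70, interval -1.23 to -0.19) were lower in replicate 2. The plasma membrane transporters were the only class with a positive ratio, 0.35, with an interval of -0.02 to 0.71. That sum mixes opposite directions. Slc5a7 (105 and 56 counts, log2 ratio -0.67, interval -1.17 to -0.19) was lower in replicate 2. Slc6a3 (7 and 50 counts) and Slc6a4 (11 and 25 counts), both with a mean under 50 counts, were higher.

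Markers of regions and cell types differed between the libraries as well. Summed over 9 genes, hypothalamic markers had 907 and 200 counts (47.8 and 12.9 TPM, log2 ratio -1.94), all 9 were lower in replicate 2, and Nr5a1 and Hcrt were at 0 there. Thalamic markers had 8020 and 4606 counts over 6 genes (122 and 76.4 TPM, log2 ratio -0.57), all 6 lower. The ratio was furthest below 0 for Tcf7l2 (2432 and 1006 counts, -1.04). Slc17a6 had the most counts (3064 and 2037, -0.35), and the interval of Rora (-0.34 to 0.12) held 0. Basal forebrain cholinergic markers had 3642 and 2213 counts over 6 genes (97.0 and 73.1 TPM, log2 ratio -0.48), with Lhx8 at 919 and 454 counts and 5 of 6 lower. Isl1, which is on the striatal list too, held 1865 and 1167 of these counts (-0.44). The exception was Ngfr, with 429 and 389 counts (0.09). Striatal markers had 15599 and 12030 counts over 10 genes (log2 ratio -0.14, interval -0.17 to -0.11), with 9 of 10 lower. Several lists of other cell types were higher in replicate 2, but not all. Summed log2 ratios were 1.53 for meningeal fibroblasts (9905 and 24331 counts, 6 of 6 higher), 0.34 for erythroid cells (6 of 6), 0.33 for microglia (6 of 6), 0.32 for radial glia (7 of 7), 0.26 for endothelial cells (6 of 6) and 0.21 for mural cells (5 of 6). Choroid plexus markers were lower in sum (9608 and 7192 counts, log2 ratio -0.18, interval -0.23 to -0.14), with 3 of 6 genes lower. Ttr alone (log2 ratio -0.20) held 8849 and 6533 of these counts, so the sum follows that gene and not the list. Peripheral ganglion markers had a summed log2 ratio of -0.27 (interval -0.61 to 0.07). The part of these marker differences in the lower values of Htr1b, Htr7, Chrna4, Ache, Slc18a3 and the other members was not tested.

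**Figure D4:**
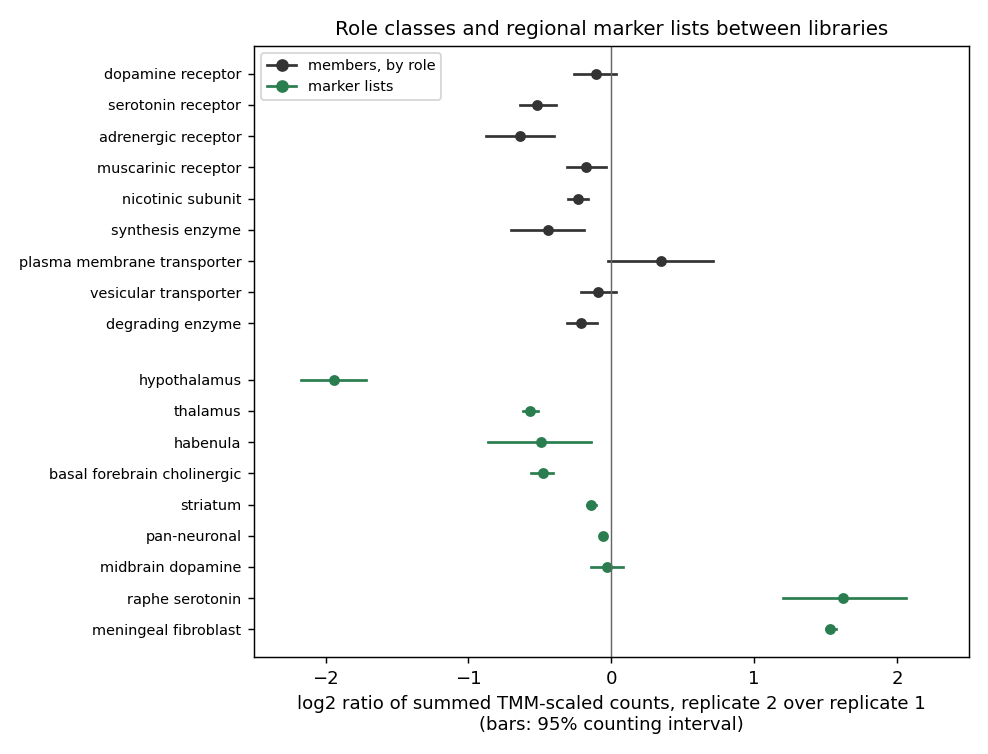
Log2 ratio of summed TMM-scaled counts, replicate 2 over replicate 1, for the 9 role classes of the members (black) and 9 marker lists (green), with 95% counting intervals. Hypothalamic markers lie furthest left at -1.94 and the raphe list furthest right at 1.62. Nearly all counts of the raphe list are of Gata2 (49 and 75) and Gata3 (16 and 93), and Fev is at 0 in both libraries. Serotonin and adrenergic receptors lie near the thalamic and basal forebrain cholinergic markers.

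Among the 21 members under 50 counts, 3 had intervals that excluded equality, not all in the same direction. Chat had 25 counts in replicate 1 and 2 in replicate 2, with a log2 ratio of -3.12 (interval -6.53 to -1.41). Slc6a3 was 7.92-fold higher in replicate 2, with a log2 ratio of 2.99 (interval 1.92 to 4.46), and Slc6a4 was 2.61-fold higher, with a log2 ratio of 1.38 (interval 0.34 to 2.59). In the same direction as Slc6a3 were Chrna6, the nicotinic subunit of dopamine terminals, with 1 and 20 counts, and the midbrain factor En1, with 1 and 13 counts. The midbrain dopamine list to which En1 belongs had 1463 and 1219 counts over 7 genes (log2 ratio -0.03). Nr4a2 alone held 1374 and 1130 of these counts, so the sum follows that gene and not the list. Of its other genes, Nr4a2 (-0.05) and Lmx1a (-0.01) were level and were the only ones to reach 1 TPM in both, Foxa1 had 8 and 2 counts, Foxa2 had 1 and 3, Pitx3 had 2 and 4, and Lmx1b had 0 and 2. In the same direction as Slc6a4 were Gata3 (16 and 93 counts) and Gata2 (49 and 75 counts) of the raphe list. Together they held nearly all of the 65 and 170 counts of that list. Lmx1b, which is on that list too, had 0 and 2 counts, while Fev was at 0 in both and Tph2 was level. The part of tissue from the midbrain or raphe in these values was not tested.

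Transcript shares, the percent of each gene's level that the authors assigned to each transcript, were compared for the 8 members that have several listed transcripts and reached 2 TPM in both libraries. The leading transcript was the same in both libraries for all 8. Chrm1-201 held 65.0% and 62.5% of Chrm1, and Chrm2-202 held 100% of Chrm2 in both. Those 2 genes were stable, and Th-201 held 100% and 89.5% of Th.

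Other shares differed widely between the libraries. Chrna4-201, the main protein-coding transcript of Chrna4, held 91.0% in replicate 1 and 61.3% in replicate 2, where the short processed transcript Chrna4-204 held 38.7%, from 21.4 counts. The effective length of Chrna4 was 4252 bases in replicate 1 and 2975 in replicate 2, so its TPM differed less (7.71 and 5.72) than its counts (615 and 268). Ddc-202 held 92.6% and 50.1% of Ddc, with 34.2% on the processed transcript Ddc-206 in replicate 2. As with Chrna4, the assignment of a few counts to short transcripts went with a lower effective length of Ddc (1795 and 1348 bases).

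Ache-201 held 82.8% and 99.0% of Ache, and Ache-202 held 15.8% and 0%. These 2 protein-coding transcripts share their last exon but for its end, so the tables do not separate the alternative tails of the enzyme. Htr2c-201 held 37.4% and 66.5% of Htr2c, and the processed transcript Htr2c-205 held 29.8% and 26.8%. For Htr7 the leading coding transcript Htr7-202 held 40.3% and 52.7%, and Htr7-204, annotated to undergo nonsense-mediated decay, held 37.1% and 42.8%. Under the deposited posterior means, 5 of the 8 members had the same leading transcript in both libraries, and Htr2c, Htr7 and Ddc did not.

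**Figure D5:**
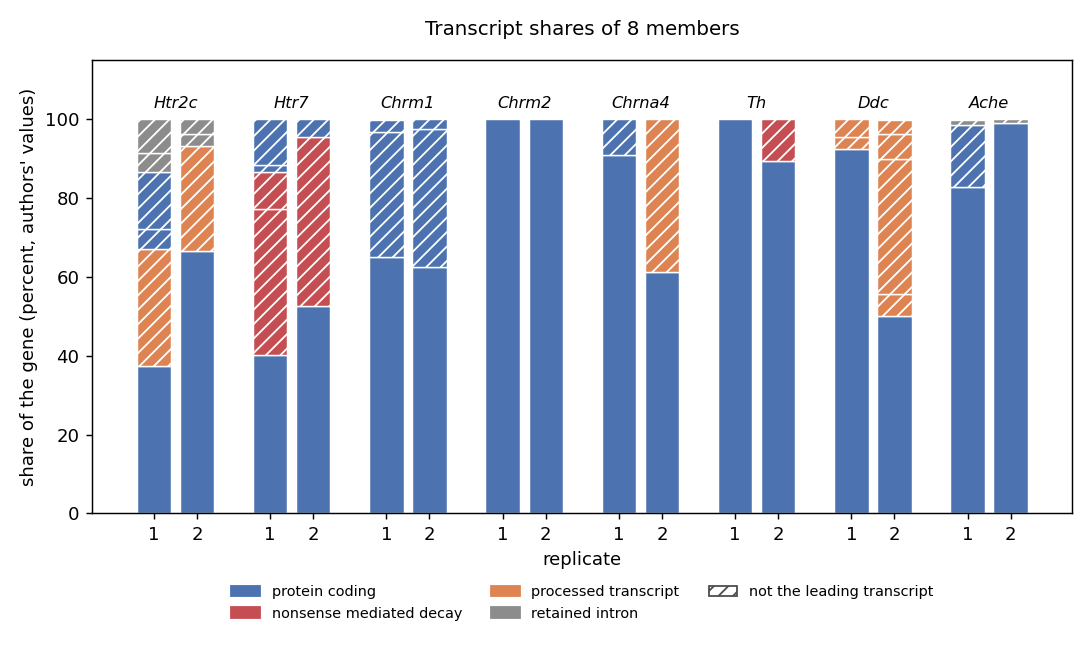
Percent of each gene's level on each listed transcript in replicates 1 and 2, for the 8 members compared; colours give the annotated transcript type and hatching marks transcripts other than the leading one. Chrm1 and Chrm2 look alike in both libraries, while Chrna4 and Ddc carry large processed-transcript shares in replicate 2. Htr2c carries such a share in both libraries (29.8% and 26.8%).

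Related genes fixed in 3 further lists put the 48 in context. Of 15 other receptor genes, none reached 1 TPM in both libraries. The muscle-type subunit Chrnb1 had 1.02 and 0.99 TPM, and the adrenergic receptor Adra2b had 0.51 and 0.58 TPM. Chrna9, Chrnd and Chrng, subunits known from hair cells and muscle, were at 0 counts in both libraries.

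Some genes that act around the transmitters were much higher. Of 14 other enzymes and transporters, 7 reached 1 TPM in both libraries and none was called, and the median of the 14 was 1.14 TPM. Qdpr, which regenerates the tetrahydrobiopterin cofactor of Th and Tph2, had 84.0 and 89.6 TPM. Slc29a4, the low-affinity plasma membrane monoamine transporter, had 81.3 and 77.5 TPM, so it was far above Slc6a2, Slc6a3 and Slc6a4 in both libraries. All 7 nicotinic accessory genes reached 1 TPM in both, led by Ly6h (350 and 287 TPM), Tmem35a, the chaperone also called NACHO (112 and 108 TPM), and Lypd1 (32.4 and 26.2 TPM).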

How the data were processed

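Total RNA was sequenced from 2 pools of E16.5 forebrain, 1 library each. Alignment was to mm10 and quantification used GENCODE M4, per notes in the deposited labels. Not given in the sources used here are the aligner, the quantification program, their versions and the use of strand. RSEM writes columns of these names. Per the file headers, the authors deposited expected counts, TPM, FPKM and the percent of each gene on each transcript, as maximum likelihood values and posterior means. TPM as deposited includes spike-ins in its sum. Symbols came from GENCODE M21, to which 42462 of the 43346 genes matched.

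The members and lists were chosen with earlier results of these data known. All 48 members are named. Values in both libraries are given for members of at least 2 TPM on average, those called, and the highest and lowest of each role class. Of each list of related genes, the 3 highest and any called are named, and markers stand beside a member's result. Some genes that this rule takes are not reported here. Chrna6, Chrna9, Chrnd, Chrng and the order of the pairs and transcripts in the text were chosen after their values were seen.

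After rounding of the expected counts, scaling factors came from edgeR 4.0.16 (TMM) and DESeq2 1.42.0 (size factors, an alternative) in R 4.3.3. Log2 ratios used a prior count of 0.5. Intervals are 95% exact Clopper-Pearson and, like the limit of 3 counts given for a count of 0, cover counting error alone, as PCR copies are not independent molecules. The call rule was tested on simulated counts with counting error alone, so that test says nothing of other variation between libraries. Other steps used Python 3.11.15, numpy 2.4.6, pandas 2.3.3, scipy 1.17.1 and matplotlib 3.10.9. Alternatives covered the TPM minimum, FPKM, posterior means, 3 other scalings, the prior, the count minimum, the fold and each replicate left out. The labels call the libraries biological replicates but name the same donor entry for both and do not say whether the pools came from separate litters, so the spread between them may be partly technical.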

Additional observations from a re-analysis of the deposited data

How the results depend on the processing

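The counts of members at 1 TPM or more (23) and 10 TPM or more (5) in both libraries stayed within 1.5 times under FPKM, posterior means and rescaling without spike-ins. With 1 replicate left out they ranged from 23 to 31 and from 5 to 6, and the median from 0.935 to 1.64 TPM. A minimum of 0.5 TPM gave 35 members, 5 TPM gave 9 and 20 TPM gave 1. Among members with at least 50 counts the median was 3.90 TPM. Posterior means moved 5 members by over 1.5 times, Dbh, Tph2, Drd3 (to 0.0900 TPM), Slc6a2 (to 0.0400 TPM) and Htr2b (to 0.405 TPM). Of the 2 members called, none was called with spike-in scaling, where Htr1b was at -0.55 and Htr5a at -0.50 (3.85% of all genes were called), and 0 with a minimum of 200 counts (0.335%), while 5 were called without a minimum (Htr1b, Htr5a, Chat, Slc6a3 and Slc6a4, against 2.53%) and 11 at 1.5-fold (6.59%). The median log2 ratio of the members, -0.50, became 0.05 with spike-in scaling, -0.28 with a minimum of 20 counts, -0.21 with 200 and -0.27 with none. DESeq2 size factors, library totals, posterior mean counts and a prior of 2 kept the same 2 calls. Of the 8 members compared, 5 had the same leading transcript in both libraries under posterior means. With 1 library left out, no ratio, pair SD or comparison of leading transcripts could be computed. No paired analysis was possible because there is 1 group. Depth limits members under 50 counts, of which there were 21.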

Other observations

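By median level, a list of genes that carry the signal inside the cell was far above each receptor class. Of 30 genes of receptor signalling, 29 reached 1 TPM in both libraries, and their list had a median of 36.8 TPM. Of the 30, 21 reached 10 TPM in both libraries, so some of them lay below the highest receptor genes, such as Chrnb2. The highest were the G protein subunits Gnas (986 and 1026 TPM), Gnai2 (248 and 268 TPM) and Gnao1 (151 and 145 TPM). Ppp1r1b, the DARPP-32 phosphoprotein of striatal dopamine signalling, had 58.3 and 61.7 TPM and was level between the libraries. None of the 29 genes with at least 50 counts was called, and 20 of them were lower in replicate 2. Kcnj6, a potassium channel opened by Gi-coupled receptors and the exception under 1 TPM in replicate 2, had 56 and 11 counts.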
